A study of Mus musculus with 4 samples.

Results

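The 34 genes described here encode proteins of the cytosolic ribosome or close relatives of them, and were found by gene symbol among 8251 genes with a probe set of their own. A probe set qualified if it carried a single symbol beginning with Rps, Rpl or Rplp and a number. Symbols of the S6 kinases (Rps6k) and of pseudogenes were left out. This gave 48 of the 12488 probe sets on the array, and the one with the highest mean signal over the 4 arrays stands for each gene. Small-subunit names make up 17 of the genes and large-subunit or stalk names 17, spread over 17 chromosomes. Another 39 probe sets match a ribosomal protein gene together with pseudogenes or other genes, and they are described separately.

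The samples were 4 mouse cultures, each measured from total RNA on 1 Affymetrix MG_U74Av2 array. Extraembryonic endoderm (XEN) cells, lines of the lineage that forms the yolk sac endoderm, supplied 3 of them. IM8A1-II was the IM8A1 line (PO strain) at passage 27, grown without gelatin, on plastic, for 4 days in RPMI 1640 containing 20% FBS, and its run record describes the sample with the letters DIFF. XEN1-3 (ICR strain) was at passage 18, on gelatin in 70% EMFI-CM. IM8A1-I was the IM8A1 line (PO strain), also at passage 27 and also on gelatin in 70% EMFI-CM. The comparison culture was R1 embryonic stem (ES) cells, pluripotent cells of the early embryo, which were undifferentiated, on gelatin with LIF. Each group therefore rests on established lines. ES has 1 line and 1 array, and XEN has 2 lines, so p-values measure the spread between these XEN cultures, which is taken to hold for the single ES array too. In such bulk RNA, fewer cells of a type and less RNA per cell cannot be told apart.

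Every ribosome is built from a small subunit, which reads the mRNA, and a large subunit, which joins amino acids, with nearly all ribosomal proteins present as single copies. Their mRNAs are among the most abundant in growing cells. Most begin with a terminal oligopyrimidine (TOP) tract, a C followed by a run of C and T in the gene, through which the mTOR kinase and Larp1 control their translation. A few genes have paralogs that are used in particular tissues, and Rpl39l, for example, is best known from male germ cells.

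To show what these start sites look like, 30 bases around the RefSeq start (15 before it and 15 from it, build GRCm38.p6) are printed for 8 of the genes whose signals are described below. They include the only member called by the test described below (Rpl39l) and its X-linked counterpart Rpl39. The others are 4 genes with lower signal in all XEN arrays (Rpl13a, Rpl7a, Rpl6 and Rps10) and a pair with small differences (Rps24 and Rps7), with and without a run in both sets. Capitals mark the longest run of a C followed by at least 7 C or T on the transcribed strand, the only strand searched. The windows are, in order, chr16:10170213-10170242 (plus strand), chrX:37085208-37085237 (minus), chr7:45128731-45128760 (minus), chr2:26910792-26910821 (plus), chr5:121204486-121204515 (plus), chr17:27635230-27635259 (minus), chr14:24490663-24490692 (plus) and chr12:28635939-28635968 (minus).
Rpl39l: ctcccaggcctttccggatttccggtggtc
Rpl39: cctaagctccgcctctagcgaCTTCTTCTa
Rpl13a: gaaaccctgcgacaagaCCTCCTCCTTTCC
Rpl7a: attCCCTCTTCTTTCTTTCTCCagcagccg
Rpl6: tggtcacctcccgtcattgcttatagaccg
Rps10: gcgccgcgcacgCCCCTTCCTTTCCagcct
Rps24: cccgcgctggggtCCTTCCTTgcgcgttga
Rps7: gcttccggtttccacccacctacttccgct
Whether a window holds a run was not set against the signal differences. Starts from RefSeq's table were used for 27 of the 34 genes. Such a run of 8 or more bases lay at a listed start of 11 of them (40.7%), against 10.8% of all 27025 genes with a start. Counted by start window, it was 30.6% of 36 windows against 9.26% of 32851. RefSeq starts need not be the exact first base, so a window with no run says only that these letters are absent from it.

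Signal is in arbitrary units, as deposited and already scaled by the authors to a common level. Fold changes are differences of log2(signal + 10.5), tested with limma across 8582 probe sets, with Benjamini-Hochberg adjustment over all of them and a threshold of 0.05. Probe sets entered the test when their signal on 1 or more arrays was at or above a background limit of 27.3 units, the 40th percentile of all values, which is not a detection call. All 4 ES markers (Pou5f1, Sox2, Nanog and Zfp42) were above that limit in ES and none in any XEN array, and all 5 XEN markers (Gata4, Gata6, Sox7, Sox17 and Foxa2) were above it in every XEN array. In ES, 1 of the 5, Gata4, reached it. The summed signal of the 5 was 4442 units in IM8A1-II, 6384 in XEN1-3 and 6914 in IM8A1-I, against 99.3 in ES. Among the XEN arrays, Gata4, Gata6 and Sox7 were lowest in IM8A1-II, while Sox17 and Foxa2 were not. Sox7 was at 225, 981 and 1339 units in IM8A1-II, XEN1-3 and IM8A1-I. Summed signal of 7 fibroblast markers was 505 to 618 units in the XEN arrays and 458 in ES, with Col3a1, Postn and Prrx1 under the limit on all arrays. The others went both ways. In IM8A1-II, XEN1-3 and IM8A1-I, Col1a2 was at 353, 403 and 352 units, against 206 in ES. Twist1 was at 87.5, 5.8 and 156, against 11.8 in ES. Higher in ES were Col1a1 (95.5, 73.0 and 68.0, against 153) and Thy1 (3.0, 5.8 and 4.6, against 48.5). The ES array is of a chip lot other than that of all XEN arrays, and the lot and the cell type cannot be told apart. The run record of XEN1-3 carries a message that no fluid was detected, and without this array the median difference given below was -0.42. Ratios of 3' to 5' control probe sets ran from 1.21 to 1.24 in XEN and stood at 1.25 in ES for actin, and from 0.954 to 1.08 in XEN against 1.02 in ES for Gapdh.

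XEN cells had somewhat less ribosomal protein signal than ES cells for most genes, by amounts that were small and mostly not past the test. Of the 34 genes, 27 were tested and 7 lay under the limit on all arrays. In limma's test 1 gene, the paralog Rpl39l, fell and 0 rose, and Rpl39l had passed the filter on dim signals only through ES, where it is high. Over all probe sets 5.05% were lower and 5.58% higher, 10.6% in either direction. At an unadjusted p under 0.05, 4 members were lower and 0 higher. Of all 8582 tested probe sets, 1245 were lower and 1299 higher at that cut-off. The share of members that were lower was thus close to that of all probe sets. The median log2 difference of the 27 was -0.36, and that of all tested probe sets was 0.05. The small-subunit genes (median -0.38, 13 tested) and the large-subunit and stalk genes (-0.35, 14 tested) had similar medians. All 3 XEN arrays lay below ES for 18 of the 27 genes, against 34% of all tested probe sets, and above ES for 3, against 39%. At least 2-fold lower in all 3 XEN arrays were 2 genes, Rpl39l and Rps4l, and 0 were 2-fold higher, against 7.74% and 8.13% of all tested probe sets. Of the 27, 23 reached the limit on every array, and 4 on 1 to 3 arrays. The size of the shift depended on 1 array and on the scaling: the median was -0.17 without IM8A1-II, and -0.11 with quantile normalization, which forces the arrays to share 1 distribution. With quantile normalization 11 of 27 genes lay below ES in all 3 XEN arrays and 6 above it, against 35.2% and 37.1% of all probe sets.

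**Figure D1:**
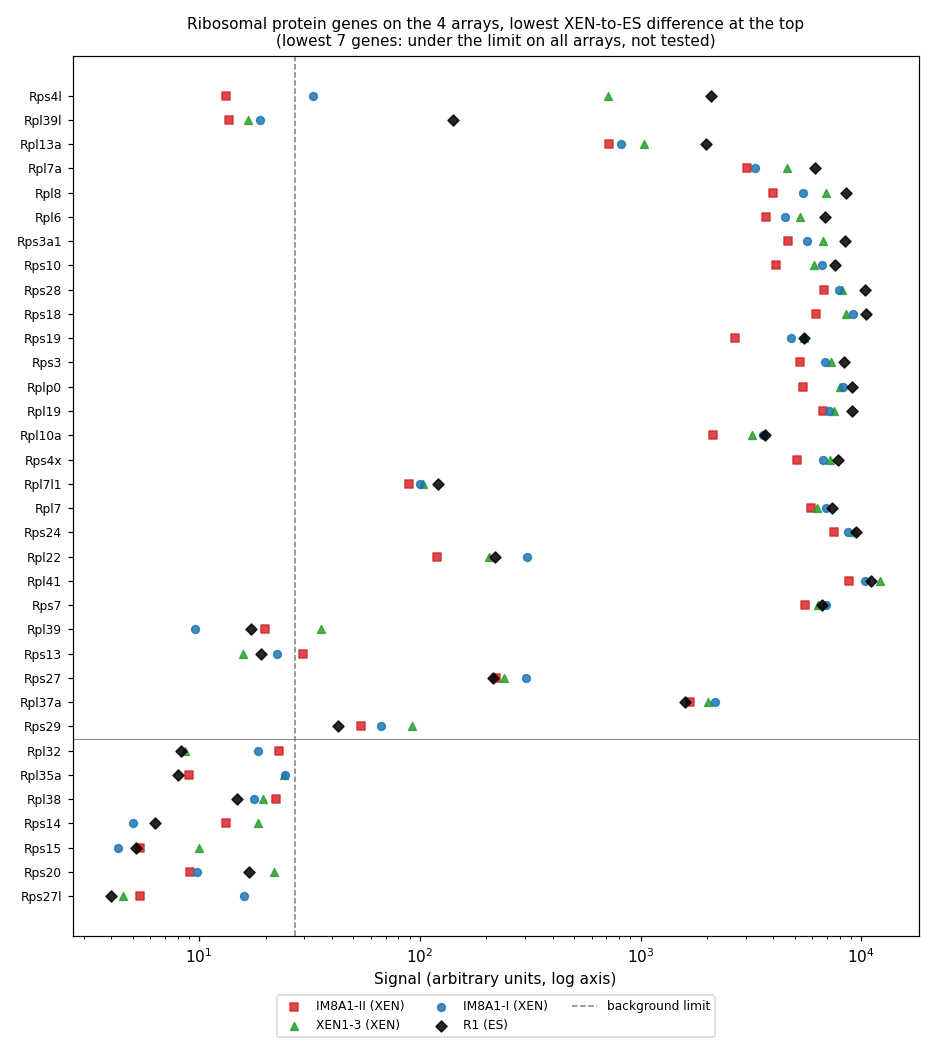
Signal of the 34 genes (log axis, arbitrary units), 1 point per array, ordered by the fitted XEN minus ES difference. The red squares of IM8A1-II lie furthest left of the 4 arrays for 22 of the 27 tested genes, and the 7 genes under the line lie below the background limit of 27.3 units on every array.

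Rpl39l, a paralog of Rpl39 whose protein lines the exit tunnel of the large subunit, was the member past the threshold. Its signal was 13.6, 16.7 and 18.9 units in IM8A1-II, XEN1-3 and IM8A1-I, against 142 units in ES. All XEN values were under the background limit and the groups did not overlap. Expression was at least 5.20-fold lower in XEN, taking XEN at the limit. The fitted log2 difference was -2.51 ± 0.33 (SE, limma adjusted p = 0.0131). Rpl39l entered the test through ES alone, and this SE and p rest on XEN values under the limit. The fitted size moved with the offset, to -1.54 with the 50th percentile and -2.99 with the 5th, so the bound is the firmer value. Rpl39 itself, on chromosome X, had only a dim probe set, at 19.8, 35.5 and 9.60 units in IM8A1-II, XEN1-3 and IM8A1-I and 17.2 in ES, so its level relative to the paralog cannot be read here.

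Rps4l, an autosomal relative of the small-subunit gene Rps4x that the annotation places on chromosome 6, had the largest fitted difference but very uneven XEN levels. It stood at 13.3 units in IM8A1-II, 709.9 in XEN1-3 and 32.7 in IM8A1-I, against 2084 in ES. ES was thus the highest array, XEN1-3 the next, and both IM8A1 cultures were near or under the limit. The fitted difference of -4.53 ± 1.81 did not pass (SE, limma adjusted p = 0.164). Without XEN1-3, which leaves only the IM8A1 line, it was -6.03 with an adjusted p of 0.000888. XEN1-3 was 21.7 times as high as IM8A1-I, a difference of 4.06 in log2 between 1 array of each line that has no test. The probe set's name marks probes that can match several transcripts. A second probe set of the gene was dim on all arrays, at 18.0 to 28.1 units in XEN and 28.9 in ES, and did not show this pattern (log2 difference -0.24). Rps4x, on chromosome X, gave 5130, 7213 and 6729 units in IM8A1-II, XEN1-3 and IM8A1-I and 7842 in ES. Its difference of -0.32 ± 0.28 did not pass (limma adjusted p = 0.495).

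Rpl13a, a large-subunit protein that in human myeloid cells can also leave the ribosome to silence inflammatory mRNAs, was the next lowest. The signals were 717 units in IM8A1-II, 1040.4 in XEN1-3 and 813 in IM8A1-I, and 1973 in ES. Every XEN array was well below ES, with a XEN mean of 857 ± 166 (SD, n = 3), or 0.434 of ES. The log2 difference of -1.21 ± 0.31 missed the threshold (limma adjusted p = 0.0618) and passed only without XEN1-3 (adjusted p = 0.0270).

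**Figure D2:**
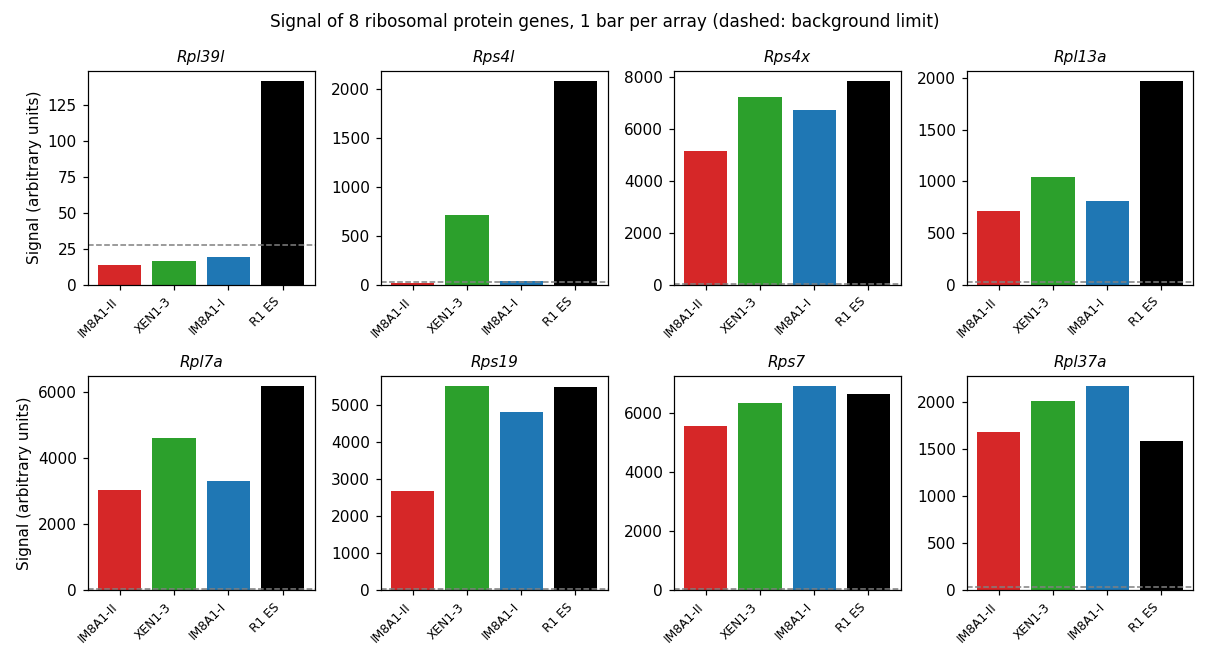
Signal of 8 genes, 1 bar per array, on linear axes from 0 with the background limit dashed. Rpl39l is above the limit in ES alone, Rps4l is high in ES and intermediate in XEN1-3, Rpl13a and Rpl7a are lower in every XEN array, Rps19 is low in IM8A1-II, and Rpl37a is higher in every XEN array than in ES.

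Among the other large-subunit genes, Rpl7a, Rpl8 and Rpl6 were the lowest in XEN. Rpl7a was at 3035 units in IM8A1-II, 4584 in XEN1-3 and 3310 in IM8A1-I, against 6166 in ES. Rpl8, whose protein contributes to the peptidyl transferase centre, was at 3972, 6889 and 5472 units in IM8A1-II, XEN1-3 and IM8A1-I, against 8568 in ES. For both genes all XEN arrays lay below ES, but the log2 differences of -0.78 ± 0.31 and -0.69 ± 0.35 did not pass (limma adjusted p of 0.164 and 0.25). Rpl6 averaged 4498 ± 805 units in XEN (SD, n = 3) and was 6820.3 in ES. Rplp0, which anchors the acidic stalk of the large subunit, averaged 7231 ± 1530.1 units in XEN and was 9120.0 in ES, with a difference of -0.36 ± 0.31 (limma adjusted p = 0.486). The other stalk genes, Rplp1 and Rplp2, have no single-symbol probe set among the members.

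At the other end, Rpl37a, a zinc-finger protein of the large subunit, was at 1682, 2017 and 2169 units in IM8A1-II, XEN1-3 and IM8A1-I and 1586 in ES. Every XEN array was above ES, by 0.29 ± 0.27 in log2, without passing (limma adjusted p = 0.509). Rpl41, one of the smallest known proteins, averaged 10435 ± 1699.7 units in XEN and was 11097 in ES, and the groups overlapped. The T-cell development gene Rpl22 also overlapped, at 119.9 units in IM8A1-II, 206 in XEN1-3 and 307 in IM8A1-I, with ES at 219. Rpl7l1, a relative of Rpl7, was slightly lower in all XEN arrays, at 97.7 ± 7.50 units against 121 in ES (log2 difference -0.28, limma adjusted p = 0.523).

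Apart from Rps4l, the tested small-subunit genes had fitted log2 differences between -0.58 (Rps3a1) and 0.59 (Rps29). Rps3a1, a protein of the subunit's platform, averaged 5686 ± 998 units in XEN and was 8412 in ES (SD, n = 3), a log2 difference of -0.58 ± 0.28 (limma adjusted p = 0.234). Rps10, at the head of the subunit and one of the human Diamond-Blackfan anaemia genes, was at 4099 units in IM8A1-II, 6094 in XEN1-3 and 6670 in IM8A1-I, against 7634 in ES. All XEN arrays were below ES, IM8A1-II by the most. Rps19, the gene most often mutated in that anaemia, was at 2669 units in IM8A1-II, 5515 in XEN1-3 and 4811 in IM8A1-I, with ES at 5497. Its groups overlapped, since XEN1-3 stood just above ES. Rps7 was alike across the groups, at 5545, 6341 and 6912 units in IM8A1-II, XEN1-3 and IM8A1-I and 6656 in ES (log2 difference -0.09 ± 0.25). Rps24, another of the human anaemia genes, was at 7509 units in IM8A1-II, 9302 in XEN1-3 and 8699.6 in IM8A1-I, just below ES at 9480.0 (-0.16 ± 0.24). Rps29 and Rps27, zinc-binding proteins, were higher in all 3 XEN arrays than in ES, at 71.1 ± 19.2 against 42.6 units and 255 ± 42.6 against 214 units, and neither passed (limma adjusted p of 0.321 and 0.643). A far brighter probe set matching both Rps27 and Rps27rt went the other way, at 2694 units in IM8A1-II, 3734 in XEN1-3 and 3162 in IM8A1-I, against 5888 in ES. Its log2 difference of -0.89 did not pass either (limma adjusted p = 0.0989), so no direction can be given for Rps27.

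The bright genes were also described relative to one another. For this, 18 genes at 1000 units or more on every array were set against their own median in each array, a limit chosen after their values were seen. This takes out any scaling of a whole array, but all values share the 1 ES array, so deviations to the same side in several XEN arrays show no stable order among the genes. Rpl7a lay below the median by 0.32, 0.21 and 0.70 in log2 in IM8A1-II, XEN1-3 and IM8A1-I. Rpl37a lay above it by 0.78, 0.56 and 0.64, a mean of 0.66 ± 0.11 (SD, n = 3), and Rps7 above it by 0.28 ± 0.15. Rps19 lay on both sides, with deviations of -0.34 in IM8A1-II, 0.22 in XEN1-3 and 0.0013 in IM8A1-I.

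**Figure D3:**
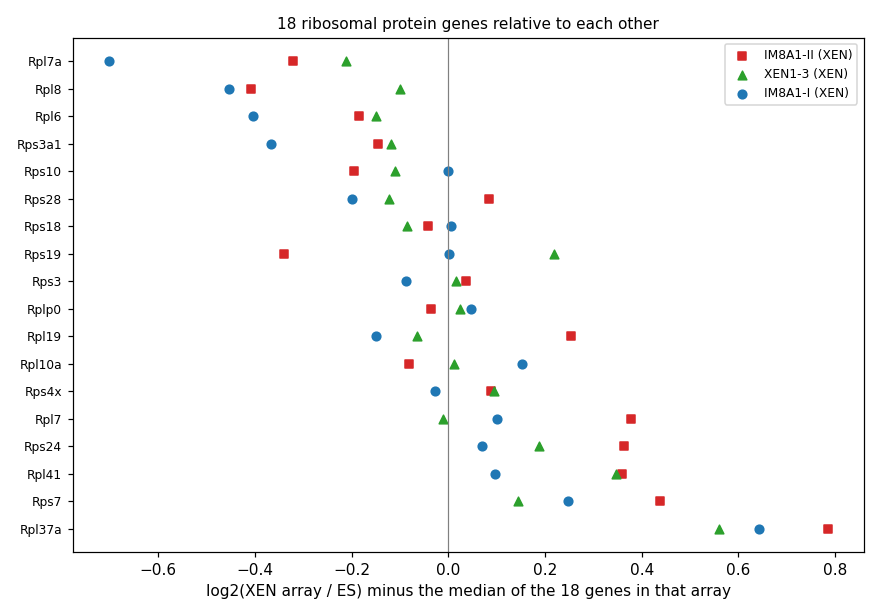
Deviation of 18 genes from their common median, as log2 of each XEN array over ES minus the median of the 18 in that array, 1 point per XEN array. Rpl7a, Rpl8, Rpl6, Rps3a1 and Rps10 lie left of 0 in all 3 arrays, Rps10 only barely in IM8A1-I, and Rps24, Rpl41, Rps7 and Rpl37a lie right of it.

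Within XEN, the culture on plastic in RPMI 1640 with serum had the least ribosomal protein signal. IM8A1-II was compared with IM8A1-I, the same line at the same passage, with 1 array each and no test. It was lower for 25 of 27 genes, where 48.4% of all tested probe sets were lower. The median log2 difference was -0.29 for the genes and 0.01 for all probe sets. Among the 18 bright genes IM8A1-II was lower for all 18, at 0.555 (Rps19) to 0.930 (Rpl19) of IM8A1-I. It was the lowest of the 4 arrays for 22 of the 27 genes, against 20.2% of all tested probe sets. Under quantile normalization it was lower than IM8A1-I for 23 and lowest for 17, with a median of -0.19 against -0.01 for all probe sets. At least 2-fold lower was 1 gene, Rpl22, at 119.9 units in IM8A1-II and 307 in IM8A1-I (-1.28 in log2), and 0 were 2-fold higher, against 2.47% and 3.51% of all probe sets.

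The next largest differences between these 2 arrays were those of Rps4l (-0.86), whose values lie near the limit, Rps19 (-0.85) and Rpl10a (-0.74). Rpl10a, a protein of the L1 stalk where spent tRNAs leave the ribosome, was at 2133 units in IM8A1-II and 3569 in IM8A1-I. Only Rpl39 and Rps13 were higher in IM8A1-II, at 19.8 and 29.5 units against 9.60 and 22.5 in IM8A1-I, all near or under the limit. The single highest value of the array was also lowest in IM8A1-II, while its 99th percentile was not. The highest value was 9750 units in IM8A1-II, 12163 in XEN1-3 and 11478 in IM8A1-I, against 12592 in ES, and the 99th percentile was 2953, 2886 and 3219 units, against 3278 in ES. In IM8A1-II, IM8A1-I and ES the highest value was that of Eef1a1, a TOP mRNA outside the 34 genes. In XEN1-3 it was that of the member Rpl41. The highest value is thus not a measure of array scale separate from the genes described here. Whether the 99th percentile bears on the ribosomal protein difference was not tested.

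XEN1-3 and IM8A1-I, 2 lines in the same medium with 1 array each and no test, differed in both directions. XEN1-3 was lower for 11 and higher for 16 of the 27 genes, where 46.3% of all tested probe sets were lower. The median difference was 0.06, against 0.04 for all probe sets. At least 2-fold higher were 2 genes, Rps4l and Rpl39, and 0 were 2-fold lower, against 4.58% and 4.53% of all probe sets. Rpl39 was at 35.5 units in XEN1-3 and 9.60 in IM8A1-I, close to the limit. Other genes on the higher side were Rpl7a (0.47) and Rps29 (0.41), and on the lower side Rpl22 (-0.55), Rps13 (-0.33), Rps27 (-0.32) and Rpl10a (-0.16).

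**Figure D4:**
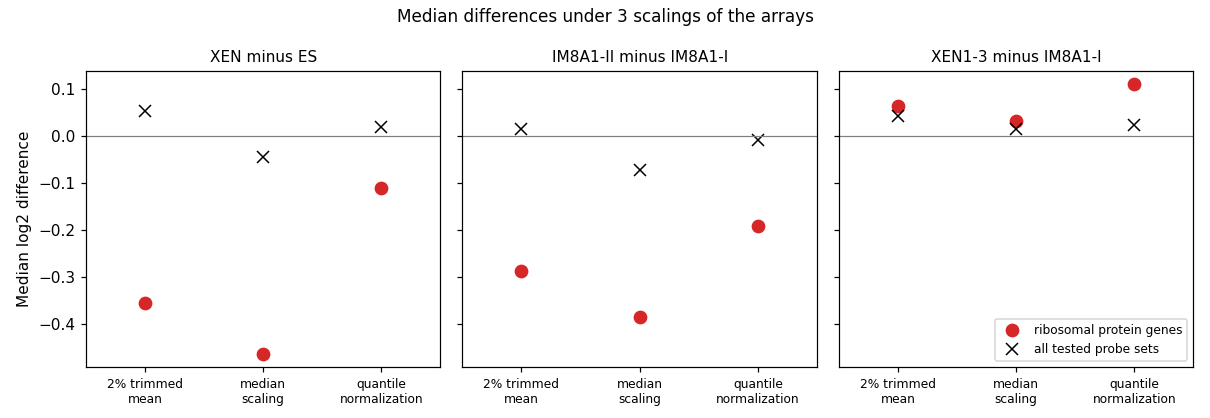
Median log2 difference of the 27 ribosomal protein genes (circles) and of all tested probe sets (crosses) in 3 comparisons, under 3 scalings of the arrays. The XEN minus ES median of the genes is -0.36, -0.46 and -0.11 under trimmed-mean scaling, median scaling and quantile normalization, and the IM8A1-II minus IM8A1-I median is -0.29, -0.38 and -0.19.

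Summed over the 34 genes, ribosomal protein signal was 3.47% of all signal in IM8A1-II, 4.63% in XEN1-3 and 4.32% in IM8A1-I, against 5.11% in ES. The XEN arrays averaged 4.14% ± 0.604 (SD, n = 3), and all lay below ES. The difference of -0.965 percentage points was -0.627 without IM8A1-II and -0.333 with quantile normalization. An exact permutation test of 3 arrays against 1 cannot go below a one-sided p of 0.25. The sum is made almost wholly of the 18 bright genes, which give 3.42%, 4.54% and 4.26% in IM8A1-II, XEN1-3 and IM8A1-I and 4.93% in ES.

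The probe sets that match a ribosomal protein gene together with pseudogenes or other genes gave much the same picture under trimmed-mean scaling. Of the 39, 35 were tested, and limma called 0, against 10.6% of all tested probe sets. At an unadjusted p below 0.05, 1 was up and 1 down, against 1299 and 1245 of all 8582. The 35 had a median log2 difference of -0.37, and 26 were below ES in all 3 XEN arrays, against 34% of all. Of the 23 at 1000 units or more on every array, IM8A1-II was the lowest array for all 23. Over all tested probe sets it was lowest for 20.2%. Below ES in all 3 XEN arrays were 20 of these 23. Mouse ribosomal protein genes have many processed pseudogenes, so the single-symbol probe sets may also pick up RNA of near-identical copies.

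Some probe sets could not report on their gene. Rpl32, Rpl35a, Rpl38, Rps14, Rps15, Rps20 and the p53-regulated paralog Rps27l were under the limit on all 4 arrays. For Rps13 and Rpl39 only 1 array reached it, IM8A1-II and XEN1-3 in that order. Of 10 genes with several probe sets, 4 had another probe set whose log2 difference was over 1 away from the chosen one. These were Rps4l, described above, and Rpl19, Rpl22 and Rps4x. The second Rpl19 probe set was at 99.9 units in IM8A1-II, 18.5 in XEN1-3 and 16.3 in IM8A1-I, against 17.3 in ES. That of Rpl22 was at 64.8, 63.4 and 44.9 units in IM8A1-II, XEN1-3 and IM8A1-I, against 20.1 in ES. A dim Rps4x probe set was at 4.4 to 8.5 units in XEN and 36.5 in ES. None of these 4 passed the test. Where both probe sets were bright they were alike, as for Rpl10a (log2 differences of -0.34 and -0.49) and Rps28 (-0.45 and -0.43).

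Of 58 tested ribosome biogenesis factors 4 fell, 0 rose and 54 did not pass. The share that fell was close to the 5.05% of all tested probe sets that were lower. At an unadjusted limma p under 0.05, 19 were lower and 1 higher, against 1245 and 1299 of all 8582. The share lower by unadjusted p was thus larger than that of all probe sets. The factors' median log2 difference was -0.62, and 43 of 58 were below ES in all 3 XEN arrays, against 34% of all tested probe sets. Those that fell were Brix1 and Pes1, factors of large-subunit assembly, Las1l, which takes part in processing of an rRNA spacer, and Nop10, a protein of the particles that make pseudouridine. Brix1 was at 599 units in IM8A1-II, 437 in XEN1-3 and 371 in IM8A1-I, against 1680.4 in ES (log2 difference -1.85 ± 0.34, limma adjusted p = 0.0297). Nop10 averaged 621 ± 169 units in XEN (SD, n = 3) and was 1892 in ES, a log2 difference of -1.62 (limma adjusted p = 0.0429). For Las1l the difference was -1.45 and for Pes1 -1.39. The count changed with the arrays used: 0 factors passed without IM8A1-I, 1 without IM8A1-II and 10 without XEN1-3. Calls over all probe sets moved the same way. Without IM8A1-I 181 fell and 185 rose, without IM8A1-II 211 and 233, and without XEN1-3 710 and 778. Of 18 genes listed for RNA polymerase I, which transcribes the large rRNAs, and its regulation, limma called 0. The share called over all tested probe sets was 10.6%. By unadjusted p 3 were lower and 0 higher, against 1245 and 1299 of all 8582. The share lower was thus close to that of all probe sets, and the median of the 18 was -0.56. The listed genes with the smallest p were Polr1d (-0.82), Baz2a (-0.88), Polr2e (-0.81) and Polr1e (-0.67).

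Among 22 tested mRNAs of the TOP class outside the 34 genes, 1 rose, 0 fell and 21 did not pass (median -0.34). Over all tested probe sets 5.58% rose. The list includes Rpsa and Fau, ribosomal protein genes whose symbols the rule did not match, and Npm1, which is also among the biogenesis factors. The one that rose was Gas5, a noncoding host of small nucleolar RNAs that accumulates when growth stops. It was at 1941 units in IM8A1-II, 2129 in XEN1-3 and 5681 in IM8A1-I, against 373 in ES, so all XEN arrays were above ES and IM8A1-I was the highest. The log2 difference was 2.91 ± 0.63 (SE, limma adjusted p = 0.0431), and it passed in 6 of 11 alternatives, not including that without IM8A1-II. A second Gas5 probe set, at 168, 223 and 206 units in IM8A1-II, XEN1-3 and IM8A1-I and 48.3 in ES, also passed (adjusted p = 0.0207), and another lay under the limit on all arrays. Btf3 (-0.85), Eef1d (-1.14) and Eif3m (-0.72) had the next smallest p in this list and did not pass.

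Of 59 mitochondrial ribosomal protein genes, which serve the ribosomes of that organelle, 3 fell, 0 rose and 56 did not pass, about the share of all tested probe sets that were lower (5.05%), with a median of -0.28. They were Mrpl45, Mrpl15 and Mrpl24, with log2 differences of -1.54, -1.30 and -1.18 (limma adjusted p of 0.0277, 0.0407 and 0.0437). The count was 0 without IM8A1-I and 0 without IM8A1-II, when fewer of all probe sets fell as well. Mrps5 (-1.12) had the next smallest p. The mTOR and S6 kinase list also holds Myc, Mycl, Mycn, Max and Mxi1, which are transcription factors of the Myc network. In that list 1 of 17 genes fell, again near the 5.05% of all tested probe sets. It was Mtor, at 113 ± 16.9 units in XEN and 307 in ES (-1.37 ± 0.29, limma adjusted p = 0.0419), though its second probe set differed by only -0.09 (limma adjusted p = 0.852). Mtor passed in 6 of 11 alternatives, and failed without IM8A1-I and without IM8A1-II. The list's median was -0.05, the value of Max, and Mycl (-2.45), Akt1 (1.12) and Eif4ebp2 (-1.06) did not pass. Of 11 genes of the Mdm2-p53 response, which senses failed ribosome assembly, limma called 0, against 10.6% of all tested probe sets. By unadjusted p 2 were up and 0 down, against 1299 and 1245 of all 8582. The share up was thus close to that of all probe sets. The median of the 11 was -0.48. In all 3 XEN arrays 5 lay above ES and 6 below it, against 39% and 34% of all tested probe sets. Ccng1, Btg2, Mdm4 and Sesn1 had log2 differences of 1.0, 1.02, -0.80 and -0.88.

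**Figure D5:**
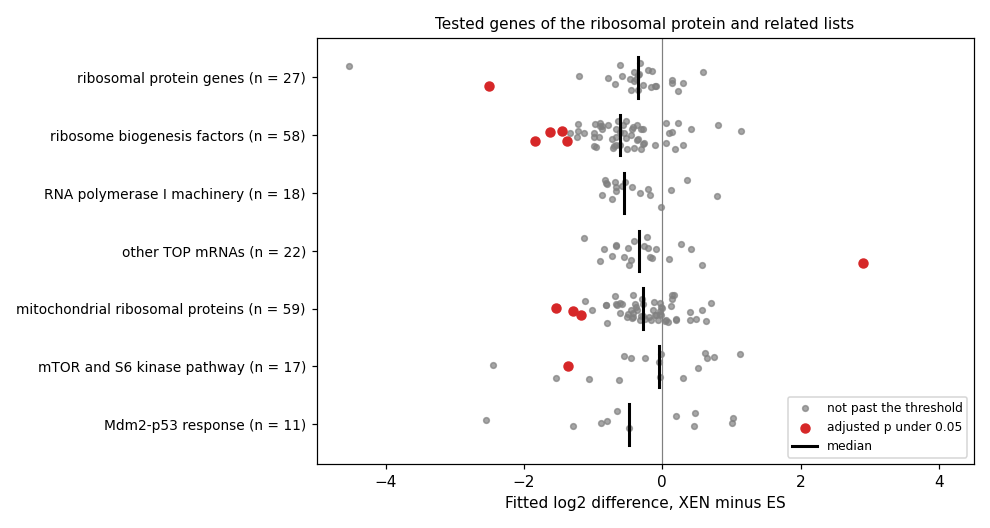
Fitted log2 difference, XEN minus ES, of each tested gene (points) of the ribosomal protein genes and 6 related lists, with genes past the threshold in red and the list medians as black bars. The medians run from -0.62 for ribosome biogenesis factors to -0.05 for the mTOR and S6 kinase list, which also holds Myc network genes.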

How the data were processed

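The deposited intensity values, 1 per probe set and array, are summaries on a linear scale. Which software made them was not given in any source used here. Per the file headers of the run records, 2 chip lots were used, 1 for the ES array and the other for the XEN arrays. Equal 2% trimmed means show that the authors had scaled the arrays.

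Arrays were rescaled to a common trimmed mean. The offset (10.5 units, 25th percentile) and the background limit (27.3 units, 40th percentile) came from all 12422 non-control probe sets. The XEN minus ES contrast came from limma (version 3.58.1, R 4.3.3; lmFit and trended eBayes, residual df 2, prior df 3.76), two-sided, and the fit was tested on simulated data. Symbols came from the platform annotation (10833 probe sets with 1 symbol, 396 with several, 1193 with none, beside 66 controls) and chromosomes from RefSeq GRCm38.p6. All 34 symbols matched. The number of arrays limits the precision.

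Genes were named by rule: members past the threshold, the 6 largest and 6 smallest differences, the 3 brightest and 3 dimmest, stalk genes, suffixed paralogs, the largest differences within XEN, genes whose probe sets disagree, and up to 4 genes a list with the smallest p. The members and the lists were chosen with earlier results of these data known. Alternatives covered the filter, offset, scaling, variance model, lines, single arrays and choice of probe set. Figures were drawn with matplotlib 3.10.9.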

Additional observations from a re-analysis of the deposited data

How the results depend on the processing

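With 1 ES array and 3 XEN cultures the test has little room for small differences, and signals under the background limit carry no order. A pair of settings was added after the data were seen, the 18 bright members alone and the probe sets with several symbols in place of the members. No paired analysis was possible because ES has 1 array and replicate numbers only name the arrays. Rpl39l was past the threshold in the 11 alternatives run, with log2 differences of -2.99 to -1.54. Its smallest adjusted p, 0.00211 in limma, came with values raised to the limit, which removes the spread of its XEN values. Ribosomal protein genes that fell numbered 0 with suffixed paralogs left out, 0 among the bright members and 0 among several-symbol probe sets, and 1 to 3 when leaving out 1 XEN array. Those at least 2-fold lower numbered 1 with the dimmest or the mean of each gene's probe sets, and 0 in the same 3 settings, while 1 several-symbol probe set was 2-fold higher. The summed share differed by -0.333 percentage points under quantile normalization. That scaling turned the log2 differences of Rpl41 (0.036), Rpl7 (0.11), Rps24 (0.087) and Rps7 (0.32) positive. Leaving out 1 XEN array gave -0.45 to 0.19 for Rpl22, -0.17 to 0.43 for Rpl39, -0.22 to 0.018 for Rpl41 and -0.0068 to 0.30 for Rps13. Over all probe sets 240 rose with values raised to the background limit, and leaving out 1 XEN array gave 185 to 778 that rose and 181 to 710 that fell. Biogenesis factors that fell numbered 2 with no filter, 1 with values raised to the limit, 1 with each line counted once and 0 to 10 leaving out 1 array, which gave 0 to 1 that rose. Other TOP mRNAs that rose numbered 0 with no filter, with values raised to the limit, with median scaling and with no variance trend, and 0 to 1 leaving out 1 array, when 0 to 2 fell. In the mTOR list 0 fell with no filter or raised values, 2 with the 50th percentile as offset and 0 to 2 leaving out 1 array. In the Mdm2-p53 list 0 to 1 fell leaving out 1 array. Mitochondrial ribosomal protein genes that fell numbered 1 with each line counted once and 0 to 4 leaving out 1 array. The cause of these changes was not tested.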
